A study of Mus musculus with 2 samples.

Results

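The 52 genes described here encode 4 families of guidance cues and their receptors, the semaphorins, the ephrins, the Slits and the netrins. They were taken by symbol from a table of transcript counts that holds 24532 gene IDs, and the counts of all transcript rows of a gene were summed. The genes had 92 rows, 50 of them passed a minimum of 10 counts in the higher library and are called measured, and 14885 genes in all were measured. RNA-seq was run on muscle stem cells (MuSCs), the resident Pax7-expressing stem cells of skeletal muscle, freshly sorted from limb muscle of male mice on a C57BL/6 background. The sort took cells positive for Vcam1 and negative for CD31, CD45 and Sca1.

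There were 2 libraries, 1 of double-knockout (dKO) and 1 of wild-type (WT) cells. The dKO genotype combines Pax7-CreER, a Cre recombinase that tamoxifen activates in Pax7-expressing cells, with Esr2–/–, which removes estrogen receptor beta, and with a second floxed gene that is not reported here. The tamoxifen protocol, by mouth at 20 mg/mL on 5 consecutive days in mice aged 3 months, is given for both samples. The sample titles carry the mark 6M, which they do not explain. Whether WT mice carried the Cre allele, and how many mice stand behind a library, is not stated in the sources at hand. The dKO library held 43699831 counts and the WT library 36636680. With 1 library per genotype, no difference below has a replicate check, each statement compares these 2 libraries, and the intervals given cover counting error only. Esr2 itself had 45 counts in dKO and 71 in WT, and since the deleted part of the gene is not given here, these counts check nothing about the label. All 14 muscle stem cell markers were measured, 6 above and 8 below 0 in log2 ratio of dKO over WT (median −0.05), with 1 called 2-fold higher and 0 lower. Pax7 had 12620 counts in dKO against 22335 in WT, and Cdh15 (M-cadherin) had 19438 in dKO against 20113 in WT. The sort antigen Vcam1 had 42383 counts in dKO against 23795 in WT, and Msc (musculin), the 1 called higher, had 9005 in dKO against 4033 in WT.

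Guidance cues were first described in axon growth and also steer the adhesion, movement and branching of cells outside the nervous system. Semaphorins bind plexins, which act on small GTPases, and the secreted class 3 semaphorins mostly need a neuropilin as co-receptor. Ephrins are held on the cell surface and bind Eph receptor tyrosine kinases on a neighbouring cell, with a signal possible in both directions. Slits bind Robo receptors and mostly repel, while netrins attract through DCC and neogenin and repel through Unc5 receptors. In muscle, Eph and ephrin contacts affect the movement of satellite cells in mouse, Sema3A is released by satellite cells in rat, and netrin and neogenin have been tied to fusion of mouse myoblasts.

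The 250 bases before an annotated start were read for the members that differed most in each direction and for which a RefSeq promoter was matched, to show their letters. RefSeq promoters on GRCm38.p6, the assembly of mm10, were matched for 43 of the 52 genes, with 57 starts in all. For Sema4c, the most abundant member in dKO, the 2 starts with a matched promoter are shown (the annotated gene reaches further upstream), for Ephb1 the highest log2 ratio and for Robo4 the lowest. The annotated Robo4 gene begins at 37401902, inside the window shown. Capitals mark matches to the AP-1 motif TGANTCA or the MyoD E-box CAGCTG, and each sequence runs 5′ to 3′ on the gene's own strand.
Sema4c, outer start, chr1:36558382-36558631, minus strand: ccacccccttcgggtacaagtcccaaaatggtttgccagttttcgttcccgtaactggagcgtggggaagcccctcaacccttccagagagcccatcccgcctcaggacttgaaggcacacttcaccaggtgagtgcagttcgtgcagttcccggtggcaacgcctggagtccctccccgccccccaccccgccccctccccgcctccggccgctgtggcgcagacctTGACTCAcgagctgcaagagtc
Sema4c, inner start, chr1:36557558-36557807, minus strand: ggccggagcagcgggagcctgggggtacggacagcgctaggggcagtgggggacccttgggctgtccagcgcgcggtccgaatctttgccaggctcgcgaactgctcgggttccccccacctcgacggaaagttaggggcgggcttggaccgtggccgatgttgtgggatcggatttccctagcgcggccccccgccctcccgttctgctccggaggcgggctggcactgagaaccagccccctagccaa
Ephb1, chr9:102354694-102354943, minus strand: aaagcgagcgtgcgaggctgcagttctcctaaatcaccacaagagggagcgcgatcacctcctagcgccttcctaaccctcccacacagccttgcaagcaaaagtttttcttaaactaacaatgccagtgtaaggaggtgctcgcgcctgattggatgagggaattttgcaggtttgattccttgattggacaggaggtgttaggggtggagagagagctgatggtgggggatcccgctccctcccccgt
Robo4, chr9:37401722-37401971, plus strand: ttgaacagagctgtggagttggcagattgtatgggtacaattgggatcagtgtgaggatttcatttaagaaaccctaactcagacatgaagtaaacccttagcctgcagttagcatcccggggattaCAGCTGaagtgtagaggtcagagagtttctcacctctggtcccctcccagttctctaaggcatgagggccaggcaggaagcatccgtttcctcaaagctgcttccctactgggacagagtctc
The outer Sema4c window has an AP-1 match that begins 22 bases before the start, and the Robo4 window has an E-box match that begins 123 bases before it. The Robo4 window holds 2 CpG dinucleotides and is 49.6% G or C, while the outer and inner Sema4c windows hold 15 and 23 CpG and the Ephb1 window 10. The median over the 57 member promoters was 16 CpG and 64.4% G or C, against 6 CpG and 52.4% over all 32851 promoters. Motifs were searched on both strands, and no overlap between motifs occurred in the windows shown. AP-1 letters were found in 2 of the 57 member promoters (Sema4c and Sema4d) and in 6.75% of all promoters. E-box letters were found in 6 of the 57 and in 13% of all, and the estrogen response element (GGTCA, any 3 bases, then TGACC) in 0 of the 57 and in 0.0639% of all. A match is a description of the letters in this window and says nothing of binding.

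Guidance genes were mostly close in level between the libraries, with a tilt towards lower values in dKO. A log2 ratio is that of dKO CPM + 1 over WT CPM + 1, where CPM is counts per mega-count of a library size scaled by the trimmed mean of M values, and a gene past 1 in size is called 2-fold apart. By this rule 2 of the 50 measured members (4%) were higher in dKO, namely Sema4c and Ephb1, where 1.92% of all measured genes were higher. Lower in dKO were 6 members (12%), namely Robo4, Sema3c, Slit3, Nrp1, Sema3f and Plxnc1, where 4.3% of all measured genes were lower. Below 0 stood 35 of the 50 (70%), against 52.4% of all measured genes, and the median log2 ratio was −0.26, against −0.02 over all measured genes. Guidance transcripts are long, with a median of 5498.5 bases against 2827 over all measured genes. With a trend on abundance and transcript length removed, 26 of the 50 were below 0, the median was −0.01, and only Ephb1 was called higher and Robo4 and Sema3c lower (backgrounds 2.06% higher and 2.81% lower). Of the 8 calls, the exact intervals of the folds of Slit3, Nrp1, Sema3f and Plxnc1 include 2-fold, so only Robo4, Sema3c, Ephb1 and Sema4c lie past it beyond counting error. In bulk RNA from sorted cells, fewer cells of a type and less RNA per cell cannot be told apart.

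**Figure D1:**
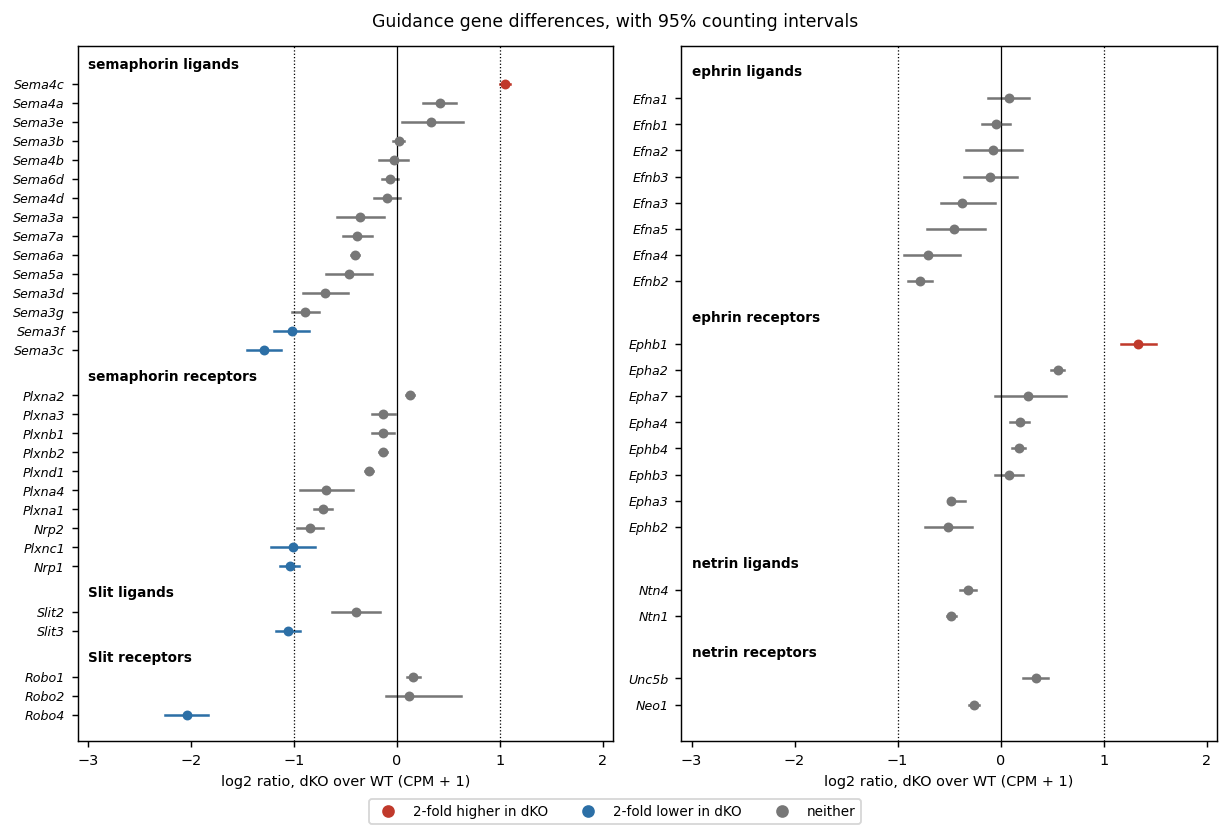
Each point is the log2 ratio of dKO over WT for a measured guidance gene (horizontal axis, CPM + 1), grouped by family and role, with its 95% counting interval as a bar and dotted lines at 2-fold. Sema4c and Ephb1 lie to the right of the 2-fold line, Robo4 farthest to the left at −2.04, and most points lie between the lines.

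Endothelial and immune markers, of cells that the gate against CD31 and CD45 should leave out, were lower in dKO beside these genes. For the counts that follow, 52.4% of all measured genes were below 0 and 4.3% were 2-fold lower. All 17 endothelial markers were below 0, 13 of them by 2-fold, and their summed level was 431.5 CPM in dKO against 965.3 CPM in WT. None of the 17 was at 0 counts in either library, and Cdh5 (VE-cadherin) had 1142 counts in dKO against 3519 in WT. All 20 immune markers were below 0, 17 by 2-fold, with a summed level of 102.3 CPM in dKO against 340.7 CPM in WT and Aif1 at 0 counts in dKO. Of the 16 fibro-adipogenic markers 4 were above and 12 below 0 (7 by 2-fold), with 4999.8 CPM in dKO against 5855.3 CPM in WT. Gsn alone had 2341.3 CPM of that sum in dKO and 2678.9 CPM in WT. Of the 11 glial markers 7 were above and 4 below 0, with 0 past 2-fold and 501.3 CPM in dKO against 458.6 CPM in WT. Among the fibro-adipogenic markers, Ly6a, which encodes the sort antigen Sca1, had 386 counts in dKO and 2316 in WT. It was 6.00-fold lower in dKO (5.39 to 6.70). Of the 10 tendon markers 9 were below 0 (2 by 2-fold), with a summed level of 2500.0 CPM in dKO against 5036.8 CPM in WT. Of the 12 mural and smooth muscle markers 11 were below 0 (4 by 2-fold), with 3072.7 CPM in dKO against 3037.6 CPM in WT. That near-equal sum rests on Notch3, the 1 marker above 0, with 1741.3 CPM in dKO against 1200.8 CPM in WT. The part of all these cells in the lower guidance genes was not tested.

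Semaphorin ligands were led by Sema4c, a transmembrane semaphorin that signals through plexin-B2. Sema4c (Entrez ID 20353, chromosome 1, 36548639 to 36560699 on GRCm38) had 11004 counts in dKO and 5282 in WT. It was 2.08-fold higher in dKO (95% interval 2.02 to 2.15). Per transcript length its level was 71.5 RPKM in dKO and 34.9 RPKM in WT, which made it the first of the 52 genes in dKO and the fifth in WT. The call depends on the scaling, since the log2 ratio of 1.05 was 0.80 with library totals and 0.82 after removal of the trend. It was 0.90 by its most abundant row alone, so the direction held under these 3 settings while the 2-fold call did not. An annotated noncoding gene on the opposite strand overlaps 334 bases of its exons, and the sources at hand do not state whether counts were made by strand.

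The next most abundant semaphorins differed less. Sema6a, a transmembrane ligand of A-type plexins, had 9262 counts in dKO and 12300 in WT (33.6 RPKM in dKO and 44.7 RPKM in WT), a log2 ratio of −0.41. Sema3b, a secreted semaphorin that acts through neuropilins, had 5354 counts in dKO and 5285 in WT and a log2 ratio of 0.02. Sema6d, a ligand of plexin-A1, had 2418 counts in dKO and 2533 in WT, with a log2 ratio of −0.07. None of these 3 genes was 1.5-fold apart between the libraries.

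Class 3 semaphorins, the secreted subgroup, stood lower in dKO except for Sema3b and Sema3e. Sema3c, which guides neural crest cells in mouse embryos, had 343 counts in dKO and 897 in WT (1.73 RPKM in dKO and 4.53 RPKM in WT) and was 2.62-fold lower in dKO (2.31 to 2.97). Sema3f, a repellent that acts through neuropilin-2, had 333 counts in dKO and 717 in WT and was 2.15-fold lower (1.89 to 2.46). Sema3g, known from endothelial cells, was just short of the line, with 662 counts in dKO and 1259 in WT and a log2 ratio of −0.89. Sema3d had 186 counts in dKO and 325 in WT (log2 ratio −0.69), and Sema3a, a repellent of motor axons, had 196 in dKO and 262 in WT (−0.36). Sema3e, the ligand of plexin-D1, went the other way with 138 counts in dKO and 101 in WT (0.34). As a group the 7 class 3 genes had a median of −0.69 on the log2 scale, and the 7 transmembrane genes one of −0.07. With the trend on abundance and length removed, the median of all 15 semaphorin ligands was −0.01, with 8 below 0. Of the class 3 genes only Sema3c was then called.

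Class 3 genes that lie close together on a chromosome did not share a value. On chromosome 5, Sema3d (12383161 to 12588953), Sema3a (13124822 to 13603485), Sema3e (14025276 to 14256689) and Sema3c (17574816 to 17730268) follow each other. Their log2 ratios in that order were −0.69, −0.36, 0.34 and −1.29. On chromosome 9, Sema3b (107597674 to 107609241) and Sema3f (107681499 to 107710475) are close neighbours with log2 ratios of 0.02 and −1.02. These are single values for each gene, given as a description.

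The other semaphorins were low to middling in level and none was 2-fold apart. Sema4a, known from immune cells, had 689 counts in dKO and 506 in WT (log2 ratio 0.42). Sema7a, which is tethered by a GPI anchor and binds plexin-C1 and integrins, had 631 in dKO and 834 in WT (−0.38). Sema4d, the ligand of plexin-B1, had 967 counts in dKO and 1036 in WT (−0.10), and Sema4b had 736 in dKO and 752 in WT (−0.03). Sema5a, which carries thrombospondin repeats, was scarce, with 193 counts in dKO and 282 in WT (−0.47).

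Semaphorin receptors were lower in dKO in 9 of 10 cases, mostly by little, where 52.4% of all measured genes were below 0. The count was 8 of 10 by the most abundant row alone (52.6% of all measured genes). With the trend removed it was 7 of 10 (49.4% of all measured genes). Plxnd1, the Sema3E receptor, was the most abundant, with 11413 counts in dKO and 13774 in WT (41.3 RPKM in dKO and 49.8 RPKM in WT; log2 ratio −0.27). Plxnb2, the receptor of Sema4C, had 9562 counts in dKO and 10480 in WT (36.8 RPKM in dKO and 40.3 RPKM in WT; −0.13). Plxna2 was the member above 0, with 10633 counts in dKO and 9712 in WT (0.13), although this sign turned under library totals. In that setting all 10 were below 0, as were 69.7% of all measured genes. The 3 plexins together made up most of the receptor RNA in both libraries, with shares of the receptor sum of 33.5%, 29.8% and 19.5% in dKO and 34.1%, 27.6% and 15.0% in WT.

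Neuropilins differed more than most plexins. Nrp1, a co-receptor for class 3 semaphorins and for VEGF, had 1306 counts in dKO and 2725 in WT (5.51 RPKM in dKO and 11.5 RPKM in WT) and was 2.09-fold lower in dKO (1.95 to 2.23). Nrp2, the other neuropilin, had 677 counts in dKO and 1246 in WT over 6 rows and was 1.84-fold lower (1.68 to 2.02; log2 ratio −0.84). Its sign turned to 0.66 by its most abundant row alone, so the value rests on the sum over rows. Plxnc1, the receptor of Sema7A, had 174 counts in dKO and 390 in WT and was 2.24-fold lower (1.87 to 2.70). Its log2 ratio of −1.01 lies on the line, and the call was lost with median-ratio scaling.

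Plxna1, a partner of neuropilins and a receptor of Sema6D, had 1533 counts in dKO and 2540 in WT, a log2 ratio of −0.71. Plxna4, scarce in both libraries, had 106 counts in dKO and 195 in WT (−0.69). Plxna3 had 1109 counts in dKO and 1217 in WT, and Plxnb1, the receptor of Sema4D, had 1306 in dKO and 1433 in WT, with log2 ratios of −0.13 each.

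Eph receptors and ephrin ligands leaned in opposite directions by the log2 ratios used here, but not in every setting. Among the 8 receptors, 6 were above 0 with a median of 0.18, while 7 of the 8 ligands were below 0 with a median of −0.24. Of all measured genes 47.6% were above and 52.4% below 0, with a median of −0.02. The receptor side turned with the scaling, since under library totals 3 of 8 were above 0 and the median was −0.07, against −0.24 for all measured genes in that setting. With the trend removed, 6 of 8 receptors were above 0 (median 0.24), while the ligand lean was gone, with 4 of 8 below 0 (median −0.01). Both medians are descriptions, and the difference between them was not tested.

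Ephb1, a receptor of B-type ephrins (Entrez ID 270190, chromosome 9, 101922128 to 102354693), had 961 counts in dKO and 356 in WT, or 5.16 RPKM in dKO and 1.91 RPKM in WT. It was 2.70-fold higher in dKO (2.39 to 3.06), the highest log2 ratio of the 52 genes at 1.34, and stayed past 2-fold with library totals (1.10), by its main row (1.17) and after removal of the trend (1.52). An annotated noncoding gene on the opposite strand overlaps 152 bases of its exons. Epha2, a receptor of A-type ephrins that is common in epithelia, was the most abundant Eph gene, with 5227 counts in dKO and 3544 in WT (33.2 RPKM in dKO and 22.5 RPKM in WT), 1.47-fold higher (1.41 to 1.54). Ephb4, the receptor of ephrin-B2, had 4271 counts in dKO and 3776 in WT (24.6 RPKM in dKO and 21.8 RPKM in WT; log2 ratio 0.18).

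Epha4, which binds ephrins of both classes, had 1897 counts in dKO and 1662 in WT (log2 ratio 0.19), and Ephb3 had 875 in dKO and 824 in WT (0.08). Ephb2 had 176 counts in dKO and 267 in WT (−0.51), and its main row alone gave −2.71. Epha7 was scarce, with 68 counts in dKO and 50 in WT. Epha3 had 0 counts in dKO and 16 in WT. Set against a floor of 3 counts in the dKO library, Epha3 was at least 5.34-fold lower with its 16 WT counts taken as they stand. The exact interval of the fold begins at 3.86, and the log2 ratio of Epha3 with the pseudocount was −0.49. With Epha3 at the 5.34-fold bound the median of the 50 members was −0.26, and that of the Eph receptors 0.18. This checks nothing, since Epha3 already lay below both medians and a lower value could not move them.

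Among the ligands, Efnb2 had the lowest log2 ratio on the CPM + 1 scale (−0.78), while the scarcer Efna4 and Efna3 had wider folds without the pseudocount. Efnb2, the transmembrane ligand of Ephb4 and a marker of arteries, had 854 counts in dKO and 1496 in WT (4.94 RPKM in dKO and 8.66 RPKM in WT) and was 1.75-fold lower (1.61 to 1.91). Efnb1 had 842 counts in dKO and 870 in WT (log2 ratio −0.05), and Efnb3 had 148 in dKO and 162 in WT (−0.10). Of the GPI-anchored ephrins, Efna1, a ligand of Epha2, was the most abundant, with 339 counts in dKO and 319 in WT (0.08).

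The other ephrin-A genes were near the lower end of detection. Efna2 had 136 counts in dKO and 145 in WT (log2 ratio −0.07), and Efna5 had 70 in dKO and 110 in WT (−0.45). Efna4 had 24 counts in dKO and 64 in WT (−0.70), and Efna3 had 14 in dKO and 30 in WT (−0.37). For such low counts the pseudocount shrinks the ratio, and without it Efna4 was 2.67-fold lower (1.65 to 4.46) and Efna3 2.14-fold lower (1.10 to 4.38). Efna1 (89271730 to 89280951), Efna3 (89313899 to 89322939) and Efna4 (89333393 to 89338028) lie side by side on chromosome 3, and antisense genes overlap exons of Efna3 and Efna4. Genes on the opposite strand also overlap exons of Plxna1, Plxna4, Plxnb1 and Ephb4. Genes on the same strand, which counting by strand would not separate, overlap exons of Plxnc1, Nrp1 and Sema4a.

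Slit3 carried most of the Slit RNA and was lower in dKO. It had 783 counts in dKO and 1673 in WT (3.92 RPKM in dKO and 8.37 RPKM in WT) and was 2.14-fold lower (1.96 to 2.33). Its share of the Slit sum was 89.5% in dKO and 93.4% in WT. Slit2 had 170 counts in dKO and 237 in WT (log2 ratio −0.40). Slit1 had 7 counts in dKO and 0 in WT, too few to be measured.

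Robo receptors did not share a direction. Robo1, the main Slit receptor here, had 4472 counts in dKO and 3995 in WT (14.8 RPKM in dKO and 13.2 RPKM in WT; log2 ratio 0.16), a sign that turned under library totals. Robo4, a Robo family member of endothelial cells (Entrez ID 74144, chromosome 9, 37401902 to 37414023), had 141 counts in dKO and 705 in WT, or 0.913 RPKM in dKO and 4.58 RPKM in WT. It was 5.00-fold lower in dKO (4.17 to 6.04), the lowest log2 ratio of the 52 genes at −2.04, and −1.25 by its main row. Its share of the Robo sum was 5.81% in dKO and 25.7% in WT. The endothelial markers Pecam1, with 1673 counts in dKO and 4745 in WT, and Kdr, with 416 in dKO and 1201 in WT, were lower as well. Robo2 had 12 counts in dKO and 8 in WT.

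The netrins Ntn1 and Ntn4 were abundant and somewhat lower in dKO. Ntn1, the best known netrin, had 7255 counts in dKO and 10113 in WT (31.6 RPKM in dKO and 44.1 RPKM in WT) and was 1.39-fold lower (1.35 to 1.44). Ntn4, a netrin of basement membranes, had 2504 counts in dKO and 3129 in WT (26.0 RPKM in dKO and 32.4 RPKM in WT) and was 1.25-fold lower (1.19 to 1.32). Ntn5, a netrin outside the 52 genes, went the other way, with 4653 counts in dKO and 2395 in WT (62.9 RPKM in dKO and 32.2 RPKM in WT), 1.94-fold higher (1.85 to 2.04). Ntn1 and Ntn4 did not pass the 2-fold rule, and their median of −0.40 was −0.65 with library totals and −0.56 after removal of the trend.

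Neo1, which encodes neogenin, a netrin receptor that also binds the RGM proteins, was the main netrin receptor with 6200 counts in dKO and 7397 in WT (21.2 RPKM in dKO and 25.3 RPKM in WT; log2 ratio −0.25). Unc5b, a repulsive netrin receptor also known from vessels, had 1137 counts in dKO and 890 in WT (0.34). Dcc, the attractive netrin receptor of neurons, had 0 counts in both libraries, which allows up to 3 counts, or 0.0750 CPM, in each.

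**Figure D2:**
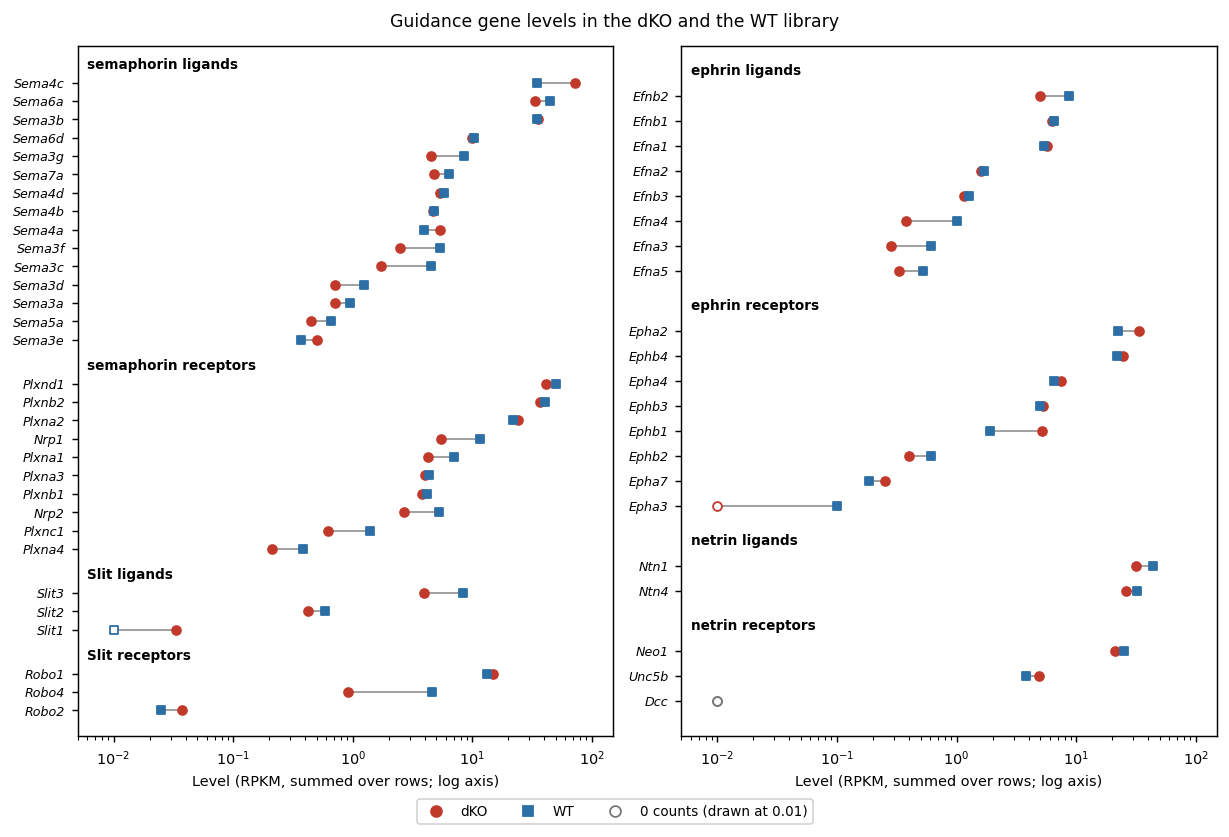
Levels of all 52 guidance genes in RPKM (log axis), with dKO as red circles and WT as blue squares joined by a line, and open symbols for 0 counts. Sema4c (71.5 RPKM in dKO) and Plxnd1 (49.8 RPKM in WT) head the 2 libraries, and Robo4, Ephb1, Sema3c and Slit3 have some of the widest gaps.

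By length-normalized level, the guidance genes spread over a wide range in both libraries. Of the 52, 19 were above the median of all measured genes in mean RPKM, and the 12 highest by mean RPKM were Sema4c, Plxnd1, Sema6a, Plxnb2, Ntn1, Sema3b, Ntn4, Epha2, Neo1, Ephb4, Plxna2 and Robo1. They hold ligands and receptors of the semaphorin and netrin families and receptors of the ephrin and Slit families. With 1 library per genotype, the order of neighbours in this list has no spread to be judged by. Several of these abundant genes are known to pair, such as Sema4c with Plxnb2 (71.5 and 36.8 RPKM in dKO, 34.9 and 40.3 RPKM in WT). The pair Ntn1 and Neo1 had 31.6 and 21.2 RPKM in dKO and 44.1 and 25.3 RPKM in WT.

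Set side by side, ligand and receptor sums moved differently in the 4 families. Semaphorin ligands summed to 181.9 RPKM in dKO and 167.1 RPKM in WT, and their receptors to 123.2 RPKM in dKO and 146.2 RPKM in WT, so that the ratio of ligands to receptors was 1.48 in dKO and 1.14 in WT. Sema4c alone was 39.3% of the ligand sum in dKO and 20.9% in WT, and without it the sum was 110.4 RPKM in dKO and 132.2 RPKM in WT. The higher semaphorin ligand sum in dKO therefore rests on Sema4c, and under library totals the ratio of dKO to WT, 1.09, became 0.913.

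In the ephrin family the sums leaned to the receptors. Ligands summed to 20.7 RPKM in dKO and 25.6 RPKM in WT and receptors to 76.4 RPKM in dKO and 58.6 RPKM in WT, with ligand to receptor ratios of 0.270 in dKO and 0.437 in WT. The receptor sum was 1.30 times as high in dKO (1.09 under library totals), and 1.20 times as high without Epha2. Slit ligands summed to 4.37 RPKM in dKO and 8.96 RPKM in WT and Robo receptors to 15.7 RPKM in dKO and 17.8 RPKM in WT, giving ratios of 0.278 in dKO and 0.504 in WT. The lower Robo sum in dKO rests on Robo4, since without it the sum was 14.8 RPKM in dKO and 13.2 RPKM in WT. The netrin ligands Ntn1 and Ntn4 summed to 57.5 RPKM in dKO and 76.5 RPKM in WT and their receptors to 26.0 RPKM in dKO and 29.1 RPKM in WT, giving ratios of 2.21 in dKO and 2.63 in WT. The direction of the netrin ligand sum and of the netrin ratio rests on the choice of members. With Ntn3 and Ntn5 added, the ligand sum was 121.2 RPKM in dKO and 109.3 RPKM in WT. With Unc5a, Unc5c and Unc5d added to the receptors as well, the ratios were 4.14 in dKO and 3.03 in WT. The receptor sum stayed lower in dKO, at 29.3 RPKM against 36.1 RPKM in WT. The ligand to receptor ratio within a library does not depend on the library scaling.

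**Figure D3:**
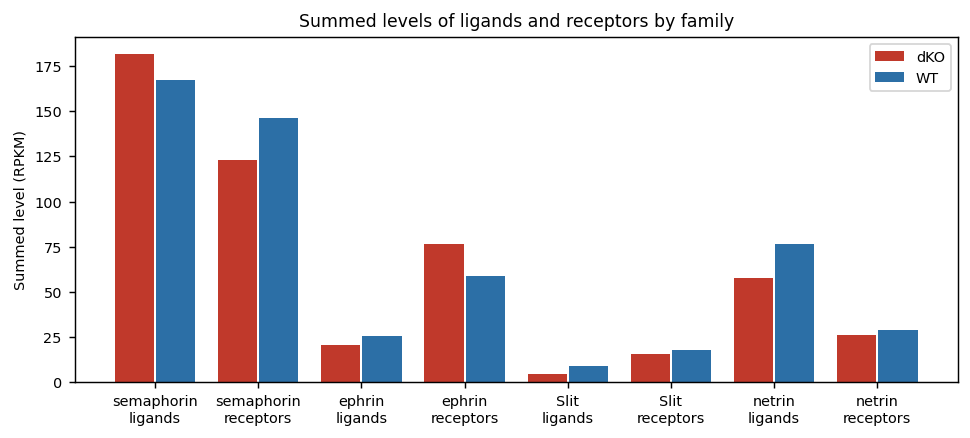
Summed level (RPKM, vertical axis from 0) of the ligands and of the receptors of each family, dKO bars left of WT bars, 1 library each. The ephrin receptor sum is higher in dKO (76.4 against 58.6 RPKM) and the sum of Ntn1 and Ntn4 lower (57.5 in dKO against 76.5 RPKM in WT).

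Transcript rows of the same gene often differed in opposite directions between the libraries. Of the 52 genes, 19 had several rows and 15 had counts in more than 1 of them. The 2 rows of Ephb2 differ by 3 bases in length, and the row of 10927 bases held 94.3% of the counts in dKO and 0% in WT. In Sema3f the row of 3393 bases held 61.3% of the counts in dKO (95% interval 55.8 to 66.5%) and 12.3% in WT (9.96 to 14.9%). In Sema4c the row of 3923 bases had 3701 counts in dKO and 344 in WT, and the row of 3643 bases had 20 in dKO and 1077 in WT.

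Other genes lost a whole row in 1 library. A Sema6d row of 6296 bases had 0 counts in dKO and 607 in WT, and a Robo4 row of 3839 bases had 0 in dKO and 322 in WT. A Nrp2 row of 6739 bases had 0 counts in dKO and 401 in WT. In the other direction, an Ephb1 row of 4544 bases had 104 counts in dKO and 0 in WT. Such losses were common in this table, since of rows with at least 100 counts in a library, 5.51% of those of genes with several rows were at 0 in dKO and 2.85% at 0 in WT. For guidance genes with several rows the shares were 10% (4 of 40 rows) and 5% (2 of 40). Genes with 1 row had such rows in 0.0666% and 0.0532% of cases, and the sources at hand do not state how counts were divided over rows.

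**Figure D4:**
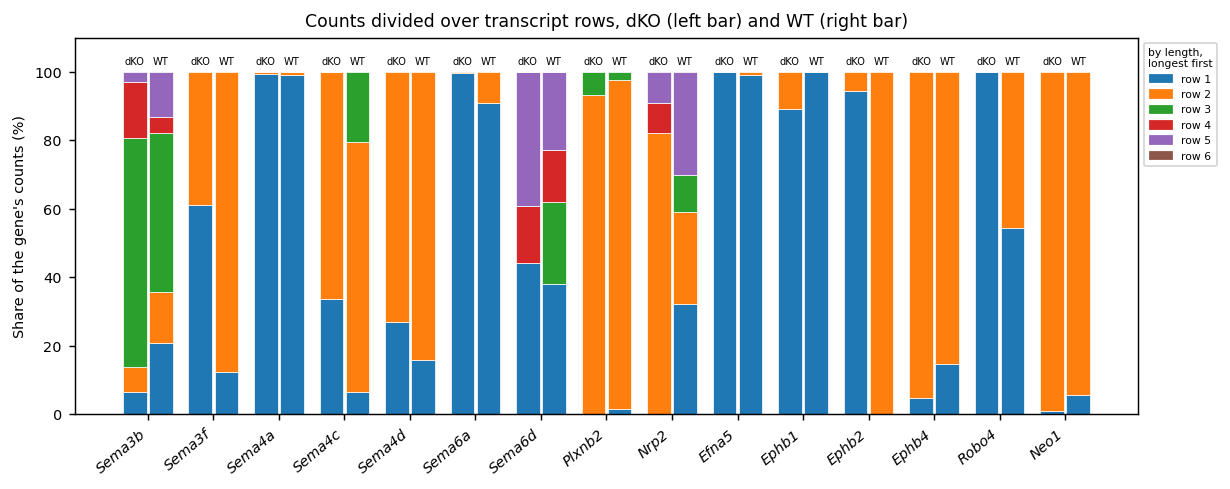
Share of a gene's counts (%) in each of its transcript rows, longest row at the bottom, for the 15 guidance genes with counts in several rows, dKO bar left of WT bar. Ephb2, Sema3f, Robo4 and Nrp2 show wide shifts between rows, while Sema4a and Efna5 keep nearly all counts in a single row.

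Guidance genes outside the 52 were counted in the same way. Of 27 further ligands and receptors, 21 were measured, and 1 (4.76%) was higher and 1 (4.76%) lower by 2-fold. Among all measured genes 1.92% were higher and 4.3% lower. The median log2 ratio of the 21 was −0.27, next to −0.26 for the members. Unc5c, a netrin receptor, was the higher one with 85 counts in dKO and 19 in WT (4.47-fold, 2.70 to 7.79). Unc5a, of the same receptor family, was the lower one with 467 counts in dKO and 1061 in WT (2.27-fold lower, 2.04 to 2.54).

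Genes that carry guidance signals inside the cell had a median log2 ratio of −0.04. Of 39 such effectors, 38 were measured, and by the log2 rule 0 were higher and 4 (10.5%) lower. Among all measured genes 1.92% were higher and 4.3% lower. Mical2, an oxidase that takes actin filaments apart, had 591 counts in dKO and 1917 in WT and was 3.24-fold lower (2.96 to 3.56). Sh2d3c, an adaptor of Eph receptors, had 155 counts in dKO and 483 in WT and was 3.12-fold lower (2.60 to 3.76). Ablim1, an actin-binding protein linked to netrin signals, was 2.31-fold lower (2.12 to 2.53), and Dpysl3, a collapsin response mediator, 2.12-fold lower (1.95 to 2.32). Pak1 fell just short of the rule at a log2 ratio of 0.99, with 2920 counts in dKO and 1447 in WT. Without the pseudocount it was 2.02-fold higher (1.89 to 2.15). In the same way the scarcer Ngef was 2.51-fold lower (1.82 to 3.50) and Tiam1 2.59-fold lower (1.93 to 3.50).

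**Figure D5:**
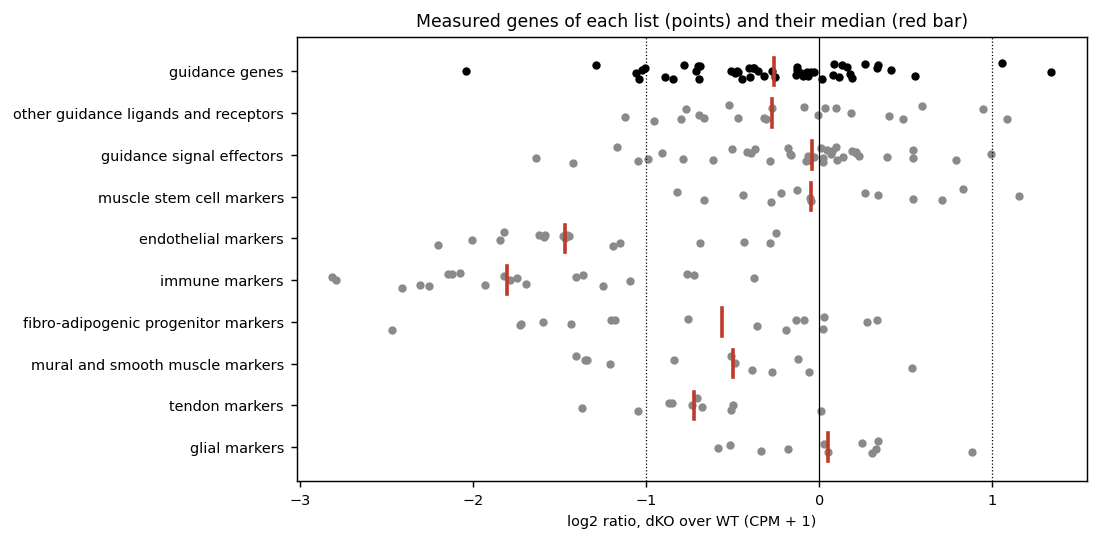
Log2 ratio of dKO over WT (CPM + 1) for each measured gene of a list (points, with random vertical spread) and the list median (red bar). The guidance genes centre at −0.26, near the 21 further ligands and receptors at −0.27, while endothelial and immune markers lie lower, at −1.47 and −1.80.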

How the data were processed

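The deposited table held whole-number read counts of 36780 transcript rows with Entrez gene IDs and transcript lengths, per the file headers. The submitters' notes list mm10, edgeR, bedtools and TopHat2 2.0.9 but give them neither roles nor an order. How and on which strand reads were counted is not stated there. Of 24532 gene IDs, 24462 matched a symbol in RefSeq genes on GRCm38.

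Rows were summed per gene. Library sizes were scaled by TMM in edgeR 4.0.16 (R 4.3.3), with factors of 0.916 for dKO and 1.09 for WT. RPKM was the count per kilobase of each row and per mega-count of scaled size, summed over rows. Folds are CPM ratios without a pseudocount, with exact conditional binomial (Clopper-Pearson) 95% intervals (scipy 1.17.1). Log2 ratios use a pseudocount of 1 CPM. A count of 0 was set against a floor of 3 counts per library. No test between genotypes was possible, so a size rule was used: at least 10 counts in the higher library and a 2-fold difference. The steps were tested on simulated counts.

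The members and lists were chosen with earlier results of these data known. Described in full were members 2-fold apart, the 2 most abundant of each family and role, and members whose main row disagreed with the sum. In other lists, up to 4 genes 2-fold apart were named. Other members were given by their counts, so that each of the 52 is accounted for. Marker genes and genes of the sort are named where a result turns on them. Cdh5, Kdr, Notch3, Gsn, Pak1, Ngef and Tiam1 were named after their values were seen. Exon overlaps came from GENCODE M21.

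Further marker lists were fibro-adipogenic (median log2 ratio −0.56), mural (−0.50), tendon (−0.72), glial (0.05) and muscle stem cell (−0.05).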

Additional observations from a re-analysis of the deposited data

How the results depend on the processing

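No paired analysis was possible because each genotype has 1 library. No called member changed sign under any alternative. Median-ratio scaling left 2 members higher and 5 lower (backgrounds 2.02% and 4.2%). Under library totals, which shift the median of all measured genes to −0.24, 1 member was higher and 9 lower (backgrounds 0.873% and 6.99%), and the median of the members was −0.48 and that of the netrin ligands −0.65. The dKO to WT ratios of summed levels under library totals were 0.913 for semaphorin ligands, 0.707 for semaphorin receptors, 0.677 for ephrin ligands, 1.09 for ephrin receptors, 0.409 for Slit ligands, 0.741 for Slit receptors, 0.631 for netrin ligands and 0.751 for netrin receptors. The small positive ratios of Efna1, Epha4, Ephb3, Ephb4, Plxna2, Robo1 and Sema3b turned negative there. By the main row, 1 member was higher and 7 lower (backgrounds 3.19% and 6.3%), and the summed ratio was 0.992 for Slit receptors and 0.928 for netrin receptors. With the trend removed, 1 was higher and 2 lower (backgrounds 2.06% and 2.81%), and the median was −0.0135 for the members, 0.17 for Slit receptors and −0.56 for netrin ligands. With a pseudocount of 5 CPM, 2 members were lower (background 1.26%), and with one of 0.1 CPM 8 were (background 11.1%) and the Slit receptor median was 0.16. By a 1.5-fold rule 2 were higher and 13 lower (backgrounds 8.98% and 13.1%), and by a 4-fold rule 0 were higher and 1 lower (backgrounds 0.168% and 0.376%). With listed relatives outside the 52 genes added, which was done once the data had been seen, the summed ratio was 1.11 for netrin ligands, 0.812 for netrin receptors and 1.25 for ephrin receptors. Among members with 1 row only, which was added once the data had been seen, 0 were higher and 4 of 31 lower (backgrounds 1.91% and 3.93%). Counts under 100, as in Efna3, Efna4, Epha3, Epha7 and Robo2, limit what can be read from those genes.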
